A study of Mus musculus with 4 samples.

Results

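The genes described here encode the intraflagellar transport (IFT) complexes and the BBSome, the protein machinery that carries cargo along cilia and flagella. They were chosen by name: protein-coding genes called Ift or Bbs with a number, plus 11 subunits that carry other symbols (Ttc8, Ttc21b, Ttc26, Ttc30b, Wdr19, Wdr35, Arl6, Mkks, Traf3ip1, Cluap1 and Hspb11). The rule found 33 genes among the 31600 features of the table, and the rule itself uses no measured value. The sources used here name the cells as mouse spermatogonial stem cells, which sustain sperm production in the testis. Markers of other germ cell stages and of somatic cells were found in both groups, as described below. Sequencing followed the removal of ribosomal RNA, in 2 control libraries labelled WT (wild type) and in 2 libraries labelled Differentiation in the same genotype field. The sources used here do not say how or when the differentiation group was obtained, the strain or age of the animals, or whether libraries came from separate cultures or animals. The p-values therefore measure only the spread between these libraries, which may be technical. The FPKM steps gave a scale of 17771800 to 20649800 fragments per library. Fragments recovered with it summed to 18434191 to 20862215 over the features, above the scale in each library, so it is not a direct count of depth.

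IFT trains move on the axonemal microtubules beneath the ciliary membrane. The IFT-B complex travels outward with the motor kinesin-2 and carries tubulin and axonemal parts, and the IFT-A complex is needed for the return with dynein-2 and for the entry of membrane proteins. The BBSome rides on the trains and carries membrane proteins out of the cilium. Chaperonin-like proteins assemble it, and the small GTPase Arl6 recruits it to membranes. In male germ cells IFT is known for its part in building the sperm tail, and genes of this machinery are known targets of RFX transcription factors, which bind a promoter element called the X-box.

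Promoter sequences are shown first because the promoter sequence is a feature of the members that the rule did not use. RefSeq promoters (GRCm38.p6, from 250 bases before to 50 bases after a gene's start) matched 29 of the 33 members by symbol, and Ttc30b, Ift80, Ift81 and Ift122 did not match. The X-box was searched as GTTGCC, 2 bases of any kind and GGCAAC, which reads the same on both strands, and its arm was searched alone as the hexamer GTTGCC on either strand. The hexamer is part of the X-box, so the searches overlap. The spacer was fixed at 2 bases and the arms at these letters, apart from the mismatches given below. X-boxes of another form were not searched, and all X-box counts here are of this pattern alone. The CRE, the cyclic AMP response element bound by factors such as Crem, was searched as TGACGTCA. The following 6 windows hold 170 bases before the start and 20 bases from it, 5′ to 3′ on the gene's strand, with every match in capitals. Bbs7, Ttc26 and Bbs1 are shown because they hold an X-box with 1 mismatch, Ift140 and Ift57 because they hold one with 2, and Mkks because it was the member with lower RNA in differentiation.
Bbs7, chr3:36613370-36613559, minus strand: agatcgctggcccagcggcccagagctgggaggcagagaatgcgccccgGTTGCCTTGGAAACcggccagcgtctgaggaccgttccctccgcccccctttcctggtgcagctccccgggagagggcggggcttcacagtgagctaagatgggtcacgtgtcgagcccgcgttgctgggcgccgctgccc
Ttc26, chr6:38381354-38381543, plus strand: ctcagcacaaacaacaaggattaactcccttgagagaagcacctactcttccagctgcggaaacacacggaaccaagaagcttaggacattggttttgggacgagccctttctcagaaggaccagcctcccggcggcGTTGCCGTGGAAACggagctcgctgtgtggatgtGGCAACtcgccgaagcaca
Bbs1, chr19:4906608-4906797, minus strand: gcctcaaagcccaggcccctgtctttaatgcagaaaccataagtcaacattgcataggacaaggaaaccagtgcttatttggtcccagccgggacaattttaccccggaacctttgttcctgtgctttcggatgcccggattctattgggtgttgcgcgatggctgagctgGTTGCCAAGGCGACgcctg
Ift140, chr17:25015916-25016105, plus strand: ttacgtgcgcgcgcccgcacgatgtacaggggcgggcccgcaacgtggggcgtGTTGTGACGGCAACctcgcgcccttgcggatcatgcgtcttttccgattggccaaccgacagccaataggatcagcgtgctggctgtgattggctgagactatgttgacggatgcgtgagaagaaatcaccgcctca
Ift57, chr16:49699124-49699313, plus strand: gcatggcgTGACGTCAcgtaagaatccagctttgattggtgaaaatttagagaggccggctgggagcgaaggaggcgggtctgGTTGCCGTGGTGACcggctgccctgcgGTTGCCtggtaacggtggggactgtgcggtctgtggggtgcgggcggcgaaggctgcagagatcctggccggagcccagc
Mkks, chr2:136891387-136891576, minus strand: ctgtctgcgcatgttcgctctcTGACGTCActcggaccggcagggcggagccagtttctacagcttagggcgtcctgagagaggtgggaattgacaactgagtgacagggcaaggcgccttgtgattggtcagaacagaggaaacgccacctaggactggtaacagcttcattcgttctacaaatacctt

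An X-box with up to 1 mismatch was found in 3 of the 29 members (10.3%) against 0.796% of the 27025 genes with a promoter entry, and one with up to 2 mismatches in 8 of 29 (27.6%) against 3.27%. The hexamer was found in 11 of 29 members (37.9%) against 14.1% of genes, and the CRE in 2 of 29 (6.9%) against 2.03%. The genes compared were not filtered by type or expression, whereas all members are protein-coding and were detected in every library. Counts among protein-coding genes tested are given below. Counted with the start base as position 0, the 9 X-boxes of these 8 members began between positions -121 (Bbs7) and 23 (Bbs4), and Ift22 held 2 of them. A match is a run of letters and not evidence of binding. All 9 are set side by side here to show where they differ, with the bases that match the searched consensus in capitals.
Bbs1, chr19:4906613-4906626: GTTGCCaaGGCgAC
Bbs7, chr3:36613497-36613510: GTTGCCttGGaAAC
Ttc26, chr6:38381491-38381504: GTTGCCgtGGaAAC
Bbs4, chr9:59353472-59353485: GTcGCCcgGGaAAC
Ift140, chr17:25015969-25015982: GTTGtgacGGCAAC
Ift22, chr5:136908087-136908100: GTTtCCtgGGCtAC
Ift22, chr5:136908117-136908130: GTcGCCgtGGaAAC
Ift57, chr16:49699207-49699220: GTTGCCgtGGtgAC
Traf3ip1, chr1:91494589-91494602: GTTGCCaaGGCcgC

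RNA of the machinery was higher in differentiation almost throughout. Of the 33 members, 29 rose and 1 fell at an adjusted p under 0.05 in limma (a linear model on log2(FPKM + 1), Benjamini-Hochberg adjusted over all features tested), and 3 did not pass. FPKM is the fragment count scaled to gene length and library depth. The length is that of all exons of a gene merged, so ranks between genes depend on it and are given in FPKM. Among all 23138 features tested, 56.6% were called, 29.6% higher and 27.0% lower, and among protein-coding features 32.5% were higher and 34.0% lower. The median log2 fold change of the members was 1.25, beside 0.01 for all features and -0.03 for protein-coding ones. In 32 members both differentiation libraries lay above both control libraries, against 40.9% of all features, and in 1 member both lay below, against 39.1%. A log2 fold change of at least 1 with a passing p was found in 19 members, against 9.70% of all features. The authors' deposited table had 30 members higher, 1 lower and 2 not called at an adjusted p under 0.05, where 22.0% of its features were higher and 20.3% lower. These are bulk samples, in which more cells of a type and more RNA per cell cannot be told apart.

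All 33 members passed the filter of a mean of 0.5 FPKM, and each was above that value in every library, from 0.939 FPKM for Ttc30b in a control library upward. The values rest on 50 to 4951 fragments per gene and library, recovered from the FPKM steps, with a median of 512.5. Summed over the 33 genes, the level was 145.5 and 147.4 FPKM in control and 373.1 and 374.5 FPKM in differentiation, 2.55 times as high. The ratio of group means ran from 0.714 for Mkks to 5.27 for Wdr35, with a median of 2.86. It was at least 2 in 21 members, at least 3 in 15 and at least 4 in 4, namely Wdr35, Ttc26, Bbs7 and Ift140.

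**Figure D1:**
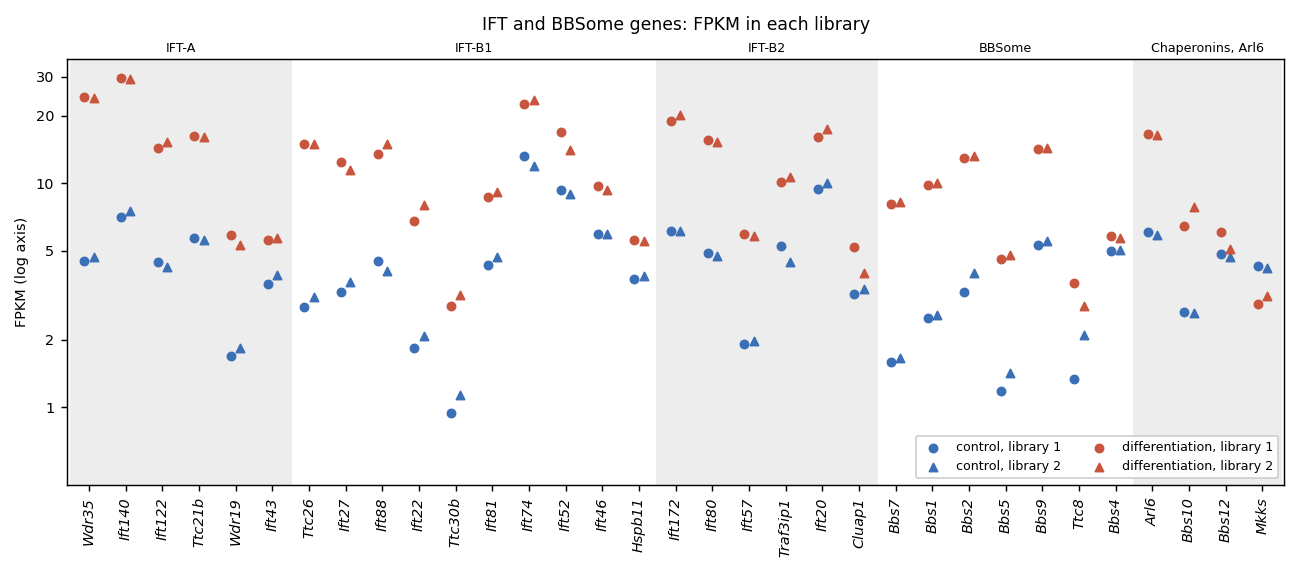
FPKM (log axis) of the 33 IFT and BBSome genes in each of the 4 libraries, grouped by complex, with blue for control, red for differentiation, circles for library 1 and triangles for library 2. Red symbols lie above blue ones in every gene except Mkks, and the distance between them is largest for Wdr35, Ttc26 and Bbs7 and small for Bbs4 and Bbs12.

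Markers of germ cell stages and of other cells also differed between the groups, in both directions. Of the 15 markers of undifferentiated spermatogonia 13 fell and 1 rose, with summed levels of 316 and 313 FPKM in control and 125 and 121 FPKM in differentiation. Of 8 markers of differentiating spermatogonia 6 fell and 1, Prdm9, rose. All 20 spermatocyte markers rose, with sums of 334 FPKM in each control library and 1631 and 1656 FPKM in differentiation, and Pgk2 was below 0.1 FPKM in control. Of the 9 spermatid markers tested 6 rose, and the 14 in the table summed to 9.93 and 7.84 FPKM in control and 37.9 and 38.6 FPKM in differentiation, with Odf1, Akap4 and Catsper1 below 0.5 FPKM in every library. Fibroblast and peritubular markers fell in 14 of 16, from sums of 539 and 544 FPKM to 209 and 195 FPKM. Macrophage and leukocyte markers fell in 7 of 9 tested, from 65.7 and 62.8 FPKM to 20.4 and 19.4 FPKM, and 1, Aif1, rose. Leydig cell markers fell in 2 of 4, from 37.3 and 38.4 FPKM to 21.6 and 21.2 FPKM. The Leydig marker Star rose, from 9.89 and 10.07 FPKM to 17.35 and 17.05 FPKM, most of the sum in differentiation. Sertoli cell markers rose in 4 and fell in 5 of 11 tested, with sums of 170 and 173 FPKM in control and 177 and 167 FPKM in differentiation. Of 6 multiciliated cell markers tested 3 rose, Tppp3, Tubb4b and Cdc20b, the last from 0.646 and 1.25 to 3.69 and 4.59 FPKM. Ccno, Ccdc78 and Foxj1, at 1.42 to 3.28 FPKM over all libraries, did not pass, and Mcidas, Deup1, Dnah5 and Dnah9 did not reach the filter, Dnah5 being below 0.1 FPKM in every library. Summed, the 10 in the table stood at 171 and 170 FPKM in control and 203 FPKM in each differentiation library, mostly Tubb4b. Some markers reached the filter through 1 group alone. Through differentiation alone came 2 spermatocyte and 3 spermatid markers (Acr, Prm1 and Tnp2), all counted above as rising. Through control alone came 2 fibroblast markers and 3 macrophage markers (Adgre1, C1qb and Mrc1), all counted as falling. Izumo1 of the spermatid list and Nanos2 of the undifferentiated list also came through control alone and were not called. The filter favoured these directions, so such calls add no support to the counts. No marker of these lists was at 0 in all libraries. The part of these shifts in the values of the ciliary and Hedgehog genes was not tested.

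The IFT-A complex had the largest increase of the 5 role groups as a sum, from 27.4 ± 0.574 to 95.7 ± 0.342 FPKM (mean ± SD, n = 2 each), 3.50 times as high, and all 6 subunits rose (median log2 fold change 1.47). Wdr35, the subunit IFT121, stood at 4.50 and 4.68 FPKM in control and 24.3 and 24.1 FPKM in differentiation. Its log2 fold change was 2.17 (95% confidence interval 2.06 to 2.29; limma adjusted p = 9.12e-05), the largest of all members. Ift140, a core subunit, stood at 7.09 and 7.53 FPKM in control and 29.6 and 29.2 FPKM in differentiation (log2 fold change 1.87; limma adjusted p = 1.12e-04). By FPKM it was the highest member in differentiation after being the fourth in control. These 2 genes had the highest levels of all members in differentiation.

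Ift122, also of the IFT-A core, stood at 4.43 and 4.22 FPKM in control and 14.4 and 15.3 FPKM in differentiation. Ttc21b, the subunit IFT139, stood at 5.69 and 5.59 FPKM in control and 16.2 and 16.05 FPKM in differentiation. Wdr19, the subunit IFT144, was the lowest of the complex in control, and stood at 1.69 and 1.84 FPKM in control and 5.84 and 5.27 FPKM in differentiation. These 3 subunits rose by 1.57, 1.37 and 1.25 on the log2 scale. Ift43, a small subunit at the edge of the complex, changed least: it stood at 3.55 and 3.90 FPKM in control and 5.59 and 5.68 FPKM in differentiation (log2 fold change 0.49; limma adjusted p = 6.41e-03), and its call was lost without differentiation replicate 2 (limma adjusted p = 0.0517). In control Ift43 lay above Wdr19 in FPKM in both libraries, and in differentiation their values overlapped. By fragments Wdr19 was above Ift43 in every library, with 371 and 428 in control against 114 and 133. Their merged exonic lengths were 11278 bases for Wdr19 and 1651 for Ift43.

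The IFT-B1 core rose in all 10 subunits, with a median log2 fold change of 0.91 and a summed level of 49.6 ± 0.373 FPKM in control and 114 ± 0.0508 FPKM in differentiation (mean ± SD, n = 2 each). Ttc26, the subunit IFT56 that acts in the transport of motility proteins, led the group, with 2.80 and 3.11 FPKM in control and 15.0 and 14.9 FPKM in differentiation (log2 fold change 2.01; limma adjusted p = 1.67e-04). Ift88, a subunit required for cilia and for sperm tail formation, stood at 4.51 and 4.04 FPKM in control and 13.5 and 15.0 FPKM in differentiation. An antisense RNA, Ift88os, shares 67 exonic bases with Ift88 (1.45% of its exonic length). Larger shares with a gene on the opposite strand were found for Ift57 (7.86%, Gm15518), Bbs4 (3.21%, Adpgk) and Arl6 (2.62%, 4930547E14Rik), among others. The sources used here do not say whether reads were counted by strand. Ift22, a small GTPase of the complex, stood at 1.84 and 2.08 FPKM in control and 6.75 and 7.96 FPKM in differentiation.

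Ift27 and Hspb11 encode a pair of subunits, the small GTPase IFT27 and its partner IFT25, that bind each other and connect the trains with BBSome traffic. Ift27 stood at 3.25 and 3.64 FPKM in control and 12.5 and 11.5 FPKM in differentiation. Hspb11 stood at 3.72 and 3.86 FPKM in control and 5.57 and 5.52 FPKM in differentiation. Their control values lay close together, Hspb11 above Ift27 within each library, and in differentiation Ift27 was above Hspb11 in both libraries. The 95% confidence intervals of their log2 fold changes, 1.34 to 1.76 for Ift27 and 0.28 to 0.62 for Hspb11, did not overlap, and the difference itself was not tested.

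Ift74 and Ift81, which together bind tubulin cargo, rose by nearly the same amount, 0.83 and 0.85 on the log2 scale, from different levels. Ift74 was the highest member in control by FPKM, with 13.2 and 11.9 FPKM, and stood at 22.7 and 23.6 FPKM in differentiation. Ift81 stood at 4.32 and 4.69 FPKM in control and 8.67 and 9.11 FPKM in differentiation. Ift52, a scaffold of the core, stood at 9.33 and 8.92 FPKM in control and 16.9 and 14.02 FPKM in differentiation, and Ift46, which binds it, rose by 0.60 on the log2 scale. The ratio of the highest to the lowest IFT-B1 subunit was 14.1 and 10.5 in control and 7.99 and 7.47 in differentiation.

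The lowest IFT-B1 gene of the rule in every library was Ttc30b, which encodes IFT70. It stood at 0.939 and 1.13 FPKM in control, from 50 and 64 fragments, and at 2.84 and 3.16 FPKM in differentiation (log2 fold change 0.97; limma adjusted p = 2.98e-03). Mouse IFT70 has other gene copies next to it, Ttc30a2 and Ttc30a1, which the rule does not hold. On GRCm38 chromosome 2, GENCODE M21 places Ttc30b at 75935849 to 75938585, Ttc30a2 at 75975740 to 75978170 and Ttc30a1 at 75978247 to 75981967, all on the minus strand. Ttc30a2 stood at 0.698 and 0.677 FPKM in control and 17.8 and 17.4 FPKM in differentiation, and Ttc30a1 at 1.57 and 1.85 FPKM in control and 10.2 and 10.4 FPKM in differentiation. Both rose, with log2 fold changes of 3.46 and 2.06 (adjusted p = 8.85e-05 and 2.36e-04 in limma).

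Summed over the 3 copies, IFT70 RNA was 3.21 and 3.66 FPKM in control and 30.8 and 30.9 FPKM in differentiation, 8.99 times as high, more than any of the 33 members. Ttc30b made up 29.2% and 30.9% of that sum in control and 9.20% and 10.2% in differentiation. Ttc30a2 made up 21.7% and 18.5% in control and 57.8% and 56.3% in differentiation. The order of the copies thus changed from Ttc30a1 first and Ttc30a2 last in control to Ttc30a2 first and Ttc30b last in differentiation. Their longest open reading frames, each of 1992 bases, were between 94.9% and 95.1% identical. Reads from stretches they share could be counted for any of them, and the sources used here do not say how the authors assigned such reads, so the share of each copy is uncertain.

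The peripheral IFT-B2 complex, which joins the core to kinesin-2, rose in 5 of 6 subunits, with a median log2 fold change of 1.09. Its summed level was 30.8 ± 0.0372 FPKM in control and 72.7 ± 0.975 FPKM in differentiation (mean ± SD, n = 2 each). Ift172, the largest subunit, stood at 6.13 and 6.11 FPKM in control and 19.1 and 20.2 FPKM in differentiation. Ift80 stood at 4.87 and 4.75 FPKM in control and 15.6 and 15.3 FPKM in differentiation, and Ift57 at 1.92 and 1.98 FPKM in control and 5.92 and 5.80 FPKM in differentiation. The log2 fold changes of these 3 ran from 1.22 (Ift57) to 1.53 (Ift172). Traf3ip1, the microtubule-binding subunit IFT54, rose by 0.97, and Ift20, which also resides at the Golgi apparatus, by 0.73. Ift20 was the highest of the group in control, at 9.43 and 10.1 FPKM, and was below Ift172 in both differentiation libraries, at 16.1 and 17.5 FPKM.

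Cluap1, the subunit IFT38, was the IFT-B member that did not pass. It stood at 3.20 and 3.38 FPKM in control and 5.18 and 3.96 FPKM in differentiation (log2 fold change 0.37, 95% confidence interval 0.01 to 0.73; limma adjusted p = 0.0733). The differentiation libraries differed from each other by about as much as the groups did. It passed without differentiation replicate 2 (limma adjusted p = 0.0391), and the authors' deposited table gave an adjusted p of 0.0430. In GENCODE M21, 22.4% of its exonic bases also belong to Gm20695, an annotated coding gene on the same strand, and 16.1% to 1700016D08Rik on the opposite strand, so some of its fragments may have been assigned to these.

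The BBSome rose in 6 of the 7 subunits that the rule holds, with a median log2 fold change of 1.31. Their summed level was 21.2 ± 1.48 FPKM in control and 59.1 ± 0.149 FPKM in differentiation (mean ± SD, n = 2 each). A further subunit, Bbip1, is outside the rule and is counted below among the partners. It stood at 6.22 and 6.73 FPKM in control and 12.2 and 10.8 FPKM in differentiation. Bbs2, Bbs7 and Bbs9 form the core on which the complex is built. Bbs7 stood at 1.58 and 1.66 FPKM in control and 8.04 and 8.22 FPKM in differentiation, and its log2 fold change of 1.80 was the largest of the group (limma adjusted p = 2.28e-04). Bbs2 stood at 3.27 and 3.96 FPKM in control and 12.9 and 13.3 FPKM in differentiation. Bbs9 was the highest of the 7 in every library, at 5.33 and 5.52 FPKM in control and 14.2 and 14.3 FPKM in differentiation. In control it was below Bbip1. Bbs1, the subunit that binds Arl6, stood at 2.50 and 2.58 FPKM in control and 9.86 and 10.01 FPKM in differentiation (log2 fold change 1.63; limma adjusted p = 1.99e-04).

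Bbs5, a lipid-binding subunit, was the lowest of the complex in control, at 1.18 and 1.43 FPKM, and stood at 4.58 and 4.80 FPKM in differentiation. Ttc8, the subunit BBS8, varied most between libraries, with 1.33 and 2.10 FPKM in control and 3.59 and 2.82 FPKM in differentiation. Its log2 fold change of 0.64 just passed (limma adjusted p = 0.0470), and the call was lost without control replicate 1, differentiation replicate 1 or differentiation replicate 2 (limma adjusted p = 0.129, 0.203 and 0.107) and under 6 other settings. Bbs4, which links the complex to pericentriolar satellites, did not pass: it stood at 4.99 and 5.04 FPKM in control and 5.80 and 5.72 FPKM in differentiation, with a log2 fold change of 0.17 (95% confidence interval 0.02 to 0.32; limma adjusted p = 0.0615). It passed when the filter was raised to a mean of 2 FPKM and with limma-voom on the recovered fragments (limma adjusted p = 0.0495 and 0.0455). Within the 7 subunits of the rule, Bbs4 stood second only to Bbs9 in control. In differentiation it was below Bbs9, Bbs2, Bbs1 and Bbs7.

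The proteins that assemble and recruit the BBSome did not move together. Arl6, the recruiting GTPase, stood at 6.02 and 5.86 FPKM in control and 16.6 and 16.4 FPKM in differentiation (log2 fold change 1.33; limma adjusted p = 1.74e-04). Of the 3 chaperonin-like genes, Bbs10 stood at 2.65 and 2.62 FPKM in control and 6.46 and 7.83 FPKM in differentiation and rose by 1.16 on the log2 scale. Bbs12 stood at 4.83 and 4.69 FPKM in control and 6.03 and 5.08 FPKM in differentiation and did not pass (log2 fold change 0.18, 95% confidence interval -0.07 to 0.44; limma adjusted p = 0.166). Mkks stood at 4.27 and 4.17 FPKM in control and 2.89 and 3.13 FPKM in differentiation, and was the member that fell.

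The fall of Mkks was 0.38 on the log2 scale (95% confidence interval -0.59 to -0.17; limma adjusted p = 0.0158), on 268 and 278 fragments in the control and 166 and 206 in the differentiation libraries. Leaving out any 1 of the 4 libraries ended this call and left 0 members called lower (limma adjusted p of Mkks from 0.0521 to 0.0822), while Mkks was lower at an unadjusted p under 0.05 in each of these 4 fits. In GENCODE M21, 29.2% of the exonic bases of Mkks also belong to AL731706.1 on the same strand, 5.58% to AL731706.2 and 5.33% to Slx4ip on the opposite strand, which limits how far these fragments can be assigned to Mkks.

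**Figure D2:**
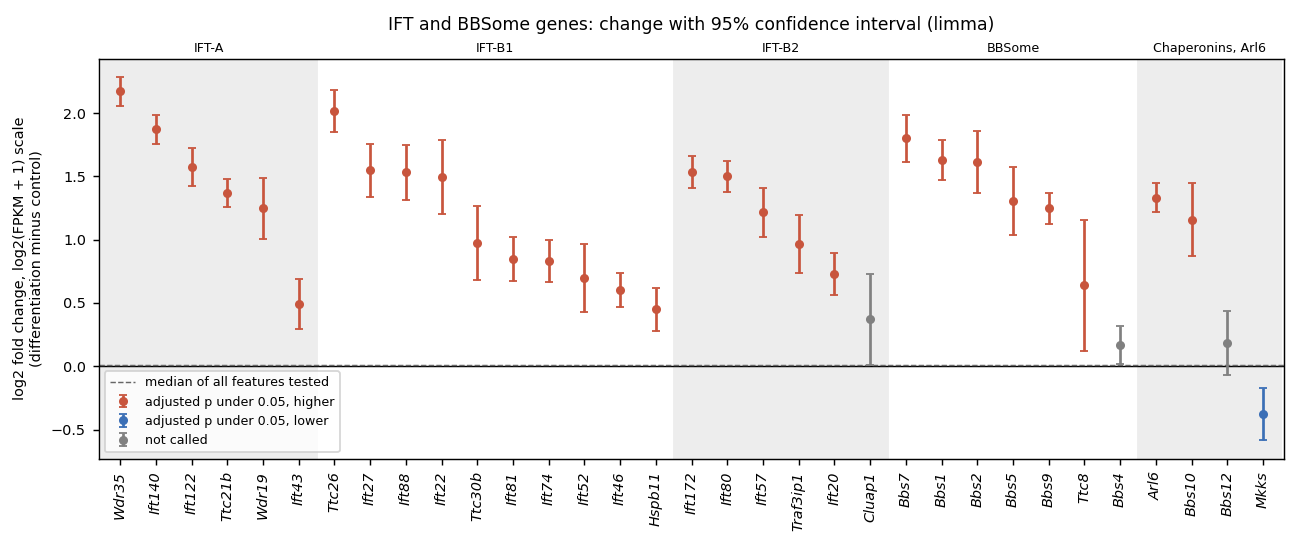
Log2 fold change (differentiation minus control, on the log2(FPKM + 1) scale) of the 33 genes by complex, as points with the 95% confidence interval of limma, in red for higher, blue for lower and grey for not called. The dashed line is the median of all 23138 features tested, 0.01, and the genes range from 2.17 (Wdr35) to -0.38 (Mkks), the chaperonins and Arl6 being the group with members on both sides of 0.

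The members that hold the hexamer GTTGCC in their promoter, seen in the windows of Bbs7, Ttc26, Bbs1, Ift140 and Ift57 above, had the larger changes on the whole, with overlap. The 11 members with it had log2 fold changes from 0.97 (Traf3ip1) to 2.17 (Wdr35), with a median of 1.55, and 10 of them were at 1 or more. The 18 members without it ranged from -0.38 (Mkks) to 1.61 (Bbs2), with a median of 0.71, and 7 of them were at 1 or more. All 4 members with a ratio of at least 4 hold the hexamer, and the 3 members that did not pass and the 1 that fell do not. For the X-box with up to 2 mismatches the medians were 1.56 in the 8 members with it and 1.16 in the 21 without it. Bbs4, with an X-box 23 bases after the start, was the member with an X-box that did not pass.

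The same split was made over all protein-coding genes tested that have a promoter entry. With the hexamer, 671 of 1686 genes were higher (39.8%) and 28.6% lower, and without it 2977 of 9394 were higher (31.7%) and 34.9% lower, with medians of 0.06 and -0.04 on the log2 scale. With an X-box of up to 2 mismatches, 250 of 476 genes were higher (52.5%) and 22.1% lower, against 32.0% and 34.5% of the 10604 genes without one, with medians of 0.26 and -0.03 on the log2 scale. For the hexamer the gap between the medians was larger in the members than over all genes, and the gap for the X-box was closer in size. These shares are descriptions across genes, which are not replicates, and carry no test.

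**Figure D3:**
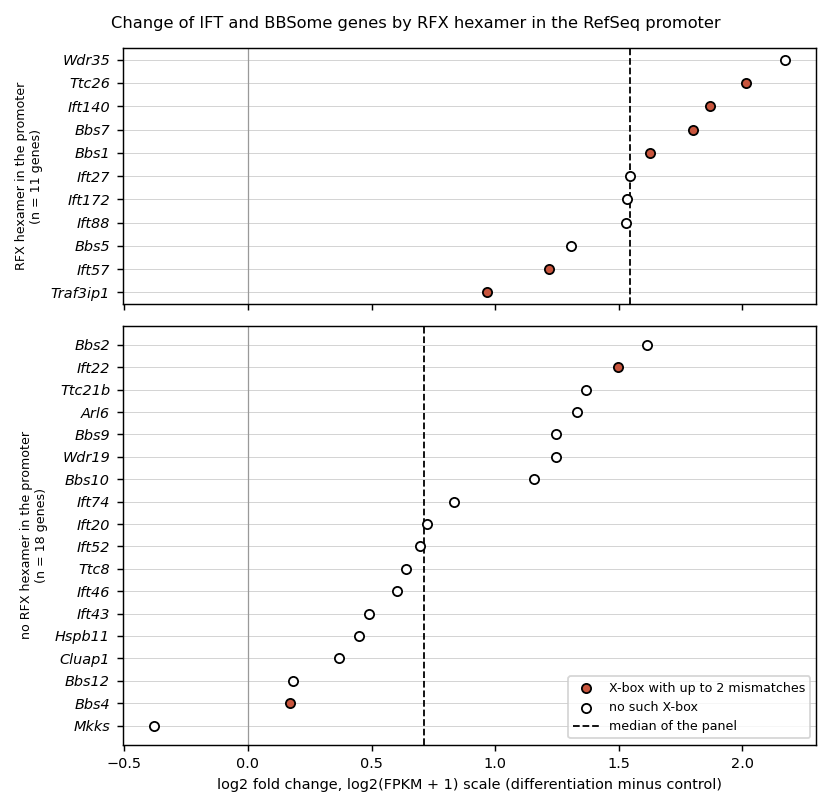
Log2 fold change (differentiation minus control) of the 29 members with a RefSeq promoter, in separate panels for the 11 with the RFX hexamer and the 18 without it. Red points hold an X-box with up to 2 mismatches, white points do not, and the dashed lines are the medians, 1.55 and 0.71. Mkks, Bbs4, Bbs12 and Cluap1 all lie in the panel without the hexamer.

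In a list of RFX factors, other ciliary regulators and germ cell factors, 9 of 11 tested transcription factors rose (median 1.47). The 9 were Rfx2, Rfx3, Rfx4, Rfx5, Rfx7, Mybl1, Sox30, Crem and Tcfl5, of which Rfx4 reached the filter through differentiation alone. Mcidas, Myb and Trp73 did not reach the filter. The count is therefore not one of ciliary regulators alone. Rfx2, a regulator of ciliary genes in male germ cells, stood at 2.62 and 3.51 FPKM in control and 39.2 and 40.5 FPKM in differentiation, and its log2 fold change was 3.34 (adjusted p = 1.99e-04 in limma). Rfx4, a relative of it, stood at 0.131 and 0.174 FPKM in control and 7.71 and 8.85 FPKM in differentiation. Rfx3, which acts in ciliogenesis of many tissues, rose by 0.31, a call lost without any 1 of the libraries (limma adjusted p from 0.0570 to 0.107) and after quantile normalization or median centring. Rfx1 was at -0.24 on the same scale (adjusted p = 0.0564 in limma) and passed as lower under both of these scalings and 3 other settings. Foxj1, the regulator of motile cilia in epithelia, stood at 1.45 and 1.64 FPKM in control and 1.42 and 1.67 FPKM in differentiation, so the groups overlapped (limma adjusted p = 0.979). Mybl1 and Sox30, factors of meiotic and later germ cells, rose by 2.39 and 2.77, and Crem by 1.85.

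In a list of IFT motors and related chains, 11 of 15 tested genes rose and 2 fell, with a median of 1.09. Of these 15 genes 1, Dynlrb2, reached the filter through differentiation alone. The list holds dynein light chains and kinesins that are not particular to IFT, so the count is not one of IFT motors alone. The dynein-2 heavy chain Dync2h1 stood at 8.02 and 8.14 FPKM in control and 25.3 and 25.6 FPKM in differentiation, and the dynein-2 chains Wdr34 and Dync2li1 rose by 1.60 and 1.98. Of kinesin-2, the motor subunit Kif3b rose from 7.98 and 7.81 to 25.1 and 23.5 FPKM, while its partner Kif3a stood at 10.2 and 9.79 FPKM in control and 13.8 and 14.5 FPKM in differentiation, so that Kif3b changed from below Kif3a to above it. The dynein light chain Dynlrb2 stood at 0.0924 and 0.0871 FPKM in control, 1 fragment in each library, and at 4.76 and 4.86 FPKM in differentiation. Its paralog Dynlrb1, 66.4% identical over the reading frame, stood at 10.1 and 9.26 FPKM in control and 7.19 FPKM and 7.20 FPKM in differentiation and fell by 0.38. The count of 2 motor genes called lower, Dynlrb1 and Kif3c, became 1 without control replicate 1 or 2 and 0 without differentiation replicate 1 or 2.

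**Figure D4:**
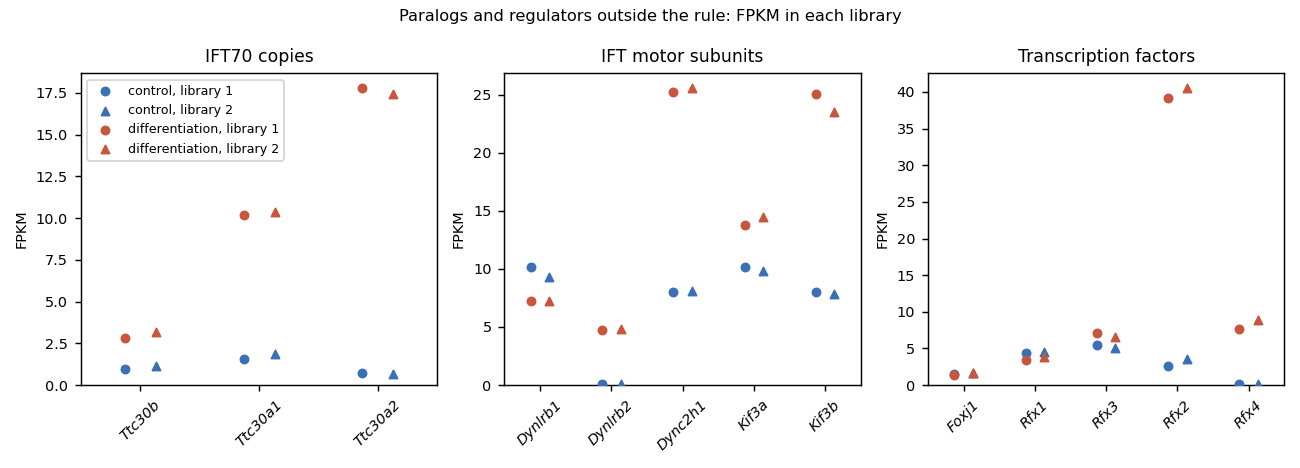
FPKM in each library (linear axes from 0) of the 3 IFT70 copies, of 5 motor subunits and of 5 transcription factors, with blue for control, red for differentiation, circles for library 1 and triangles for library 2. Ttc30a2, Dynlrb2, Rfx2 and Rfx4 are near the axis in control and well above it in differentiation, Dynlrb1 is lower in differentiation, and the Foxj1 symbols overlap.

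Other parts of the cilium rose as well. Of 22 transition zone genes, which form the gate at the base of the cilium, 18 rose and 1, Nphp4, fell, with a median of 0.93. Among them Tmem67, Tctn1 and Iqcb1 had log2 fold changes of 2.08, 1.63 and 1.13. The call of Nphp4 was lost without any 1 of the libraries, leaving 0 lower. Of 14 basal body and distal appendage genes tested, 12 rose (median 0.87), among them Odf2, 2700049A03Rik (Talpid3), Pcm1 and Cep83. Of 15 regulators and partners of IFT and the BBSome outside the rule, 10 rose and 2 fell, the latter being the IFT-A adaptor Tulp3 and the ubiquitin ligase Trim32. Besides the IFT70 copies, the kinase Mok and the dynein assembly factor Daw1 rose by 1.35 and 2.68, Daw1 reaching the filter through differentiation alone.

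Among ciliary small GTPases and their regulators 7 of 13 rose and 4 fell, with a median of 0.23. Of all protein-coding features tested, 32.5% were higher and 34.0% lower, so falls were no more frequent in this list. The GTPase regulators Arl2bp and Pde6d rose by 0.88 and 0.96, and the GTPases Rab28 and Arl13b by 1.15 and 0.78. The 4 that fell were Unc119, Rp2, Unc119b and Rab34, and their number was 1 without control replicate 1 or differentiation replicate 2, and 2 without control replicate 2. Of 28 genes of the manchette and the sperm tail, which are known as destinations of IFT cargo in spermatids, 23 reached the filter, 8 of them through differentiation alone with a control mean below 0.5 FPKM, and no count or median is given for that reason. Rsph1, a radial spoke protein, stood at 1.06 and 0.999 FPKM in control and 103.5 and 103.4 FPKM in differentiation, and Meig1, needed for the manchette, at 0.699 and 0.791 FPKM in control and 51.7 and 54.3 FPKM in differentiation. Spef2, Akap3, Akap4, Odf1 and Pmfbp1 did not reach the filter.

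Hedgehog signalling genes, whose products work through the primary cilium, moved the other way. Of 13 tested, 10 fell, with a median of -0.64 (1 gene, Hhip, reached the filter through control alone), and 6 fell without differentiation replicate 1 or differentiation replicate 2. Gli3, a transcription factor of the pathway, stood at 9.999 and 10.4 FPKM in control and 3.09 and 3.27 FPKM in differentiation, and the signal transducer Smo at 11.1 FPKM in both control libraries and 5.09 and 5.04 FPKM in differentiation. The receptor Ptch1 and the co-receptor Cdon fell by 1.00 and 0.79 on the log2 scale.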

How the data were processed

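Per the labels' protocols, TRIzol extraction and removal of ribosomal RNA preceded the making of 2 control and 2 differentiation libraries. HISAT2 and GRCm38 appear in the submitters' processing notes; the sources used here name no annotation, counting tool or strand setting. The deposited table gave FPKM per library, computed by the authors, for 31600 features. Beside these stood the authors' log2 fold change, p-value and adjusted p-value, from a test unnamed in the sources used here.

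The test was limma (version 3.58.1, R 4.3.3) on log2(FPKM + 1) with trended prior variance and no term but group. It covered the 23138 features whose mean reached 0.5 FPKM. The two-sided p-values were adjusted by Benjamini-Hochberg over all of them, with 0.05 as the threshold. Fold changes on this scale understate the change of low genes. An exact permutation test of 2 against 2 libraries cannot pass that threshold and was not used. Fragments were recovered as FPKM times exonic length in GENCODE M21 times a scale per library, between 17771800 and 20649800; 96.2% of features under 300 fragments came out whole within 0.05 fragments in every library. Of the list names, 2 were found by a synonym and 8 had no match in the table.

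The members and lists were chosen with earlier results of these data known. Values are given for the 3 largest changes, the highest and the lowest subunits of each role group, every member called lower, and up to 4 genes of each other list by p; others were named after their values were seen. A transition zone gene is not reported here by name. Other pseudocounts, filters and scalings, a prior without trend, a block on replicate number, fits that leave out 1 library, and limma-voom were run as alternatives. Further steps used Python 3.11.15 and pandas 2.3.3.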

Additional observations from a re-analysis of the deposited data

How the results depend on the processing

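No member changed direction under any of the 13 alternatives. Of 429 member results under them, 411 kept their side of the threshold, 14 lost it (9 for Ttc8, 4 for Mkks, 1 for Ift43) and 4 gained it (2 each for Bbs4 and Cluap1). Between 28 and 31 members were called higher. Leaving out a library gave 0 members called lower, likewise for the chaperonins and Arl6. The members' median log2 fold change was 1.46 and 1.38 with pseudocounts of 0.1 and 0.5, 1.14 after quantile normalization, 1.15 after median centring, 1.49 with limma-voom and 1.21 to 1.27 without 1 library. The share of members with an X-box was 10.3% at 1 mismatch and 27.6% at 2. Same-numbered libraries shared no deviation from their group means across features (correlation -0.000408). That value cannot decide whether the libraries were paired, since their origin is not given. The replicate block gave 28 members higher and 1 lower, and 0 transition zone genes lower. Leaving out 1 library gave 0 to 1 motors, 1 to 3 small GTPase genes, 0 transition zone genes and 6 to 8 Hedgehog genes called lower. Motors called lower were 1 with no filter, and small GTPase genes 2 with no intensity trend. Quantile normalization and median centring each gave 2 transition zone genes lower, and quantile normalization 1 basal body gene. A filter at 2 FPKM, quantile normalization, median centring, no intensity trend and limma-voom each gave 1 transcription factor lower, where the reported fit gave 0. Foxj1, not called in any, had a log2 fold change of -0.0749 to 0.0674 without 1 library, and of 0.0511 without control replicate 2. With 2 libraries a group, the spread rests on 2 residual degrees of freedom, and the standard error of the log2 fold change was largest for Ttc8 (0.189) among the members.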
